A study of Mustela putorius furo with 2 samples.

Results

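The genes described here are the nuclear genes for subunits of oxidative phosphorylation. They were chosen by name alone: NDUFA, NDUFB, NDUFC, NDUFS and NDUFV genes, SDHA to SDHD, the UQCR genes, the nuclear COX subunits and the ATP5 genes, each with at least 1 UMI (unique molecular identifier, 1 counted RNA molecule). Of 93 symbols that matched, 60 held a UMI, among 21317 names with a UMI in the whole series. The other 33 symbols, which include 9 UQCR and 17 COX names, held none. All 33 stood in the last stretch of the gene list, where no name held a UMI, and none of them was in the RefSeq table of ferret genes, so they were treated as unmeasured. Complex III and the COX-named subunits of complex IV are therefore not analysed here. The 60 members are 36 subunits of complex I, 4 of complex II, NDUFA4 of complex IV, 17 of ATP synthase (complex V), its inhibitor ATP5IF1, and NDUFA4L2, a paralogue of NDUFA4.

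The RNA came from dorsal cortex of wild-type ferret pups (Mustela putorius furo) at postnatal day 3. The tissue was dissociated with papain and made into droplet libraries on the 10x Genomics Chromium platform, as 2 replicates of 1 group with no second genotype, age or treatment. Comparisons are therefore between cell classes within the libraries, called A and B here because the labels do not tie the barcodes to a replicate number. The labels also do not say that the replicates are separate animals, so every p-value measures only how class differences vary across these 2 libraries, and that variation may be technical.

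Oxidative phosphorylation makes ATP in the inner mitochondrial membrane. Complex I (NADH dehydrogenase) and complex II (succinate dehydrogenase, also an enzyme of the citric acid cycle) pass electrons to complexes III and IV. The protons pumped on the way drive ATP synthase, a rotary enzyme with a catalytic F1 head, a rotating c ring and a peripheral stalk that holds the head still. Most subunits are encoded in the nucleus, while mitochondrial DNA encodes the remaining proteins of complexes I, III, IV and V. Progenitors, neurons, glia and vascular cells of the developing cortex are known to differ in how far they rely on this pathway or on glycolysis.

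Library A held 41836475 UMIs in 9782 cells (median 3602.5 UMIs per cell) and library B 18907140 UMIs in 5005 cells (median 3068), and 21 barcodes occurred in both. Cells were sorted into classes by marker RNA, and 10631 of the 14773 kept cells were placed in a class. In libraries A and B these were 3768 and 1674 excitatory neuron-like cells, 976 and 266 inhibitory neuron-like, 549 and 214 non-dividing and 203 and 97 dividing intermediate progenitor-like, 655 and 356 non-dividing and 183 and 85 dividing glia-like, 384 and 184 gliogenic progenitor-like, 186 and 70 oligodendrocyte precursor-like, 121 and 324 endothelial-like, and 117 and 129 microglia-like cells. Mural-like cells (23 and 15), ependymal-like cells (3 and 21) and cells positive for the haemoglobin gene HBM (17 and 11) had fewer than 20 cells in a library and entered no test. Glial marker RNA was also found in neurons: FABP7, a glial gene, had a UMI in 98.6% of cells, and the 10 measured glia markers, FABP7 included, summed to 9210 and 10184 CPM (UMIs of the genes per 1000000 UMIs of that class and library) in excitatory neuron-like cells, against 40697 and 42636 CPM in non-dividing glia-like cells. Its part in the results was not tested.

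Together the 60 members made up 18843 CPM of library A and 19569 CPM of library B. The summed level was highest in dividing intermediate progenitor-like cells, at 20842 and 21544 CPM, and lay close to that in gliogenic progenitor-like cells (20467 and 21227), dividing glia-like cells (19910 and 21281) and non-dividing glia-like cells (20075 and 20828), whose library values overlap. Next stood oligodendrocyte precursor-like cells at 19139 and 20354 CPM, inhibitory neuron-like cells at 19264 and 20191, and non-dividing intermediate progenitor-like cells at 18940 and 20767, which overlap as well. Excitatory neuron-like cells had 17704 and 18814 CPM, microglia-like cells 16978 and 18225, and mural-like cells 17332 and 18318. Endothelial-like cells stood below all of these in both libraries, with 15335 CPM (95% Poisson interval for counting error 14952 to 15725) and 16157 CPM (15885 to 16432). HBM-positive cells had the lowest sum in each library, 11142 and 14944 CPM, from 17 and 11 cells, and no test was made. The UMI total behind their CPM includes haemoglobin genes, and HBM was the gene they were chosen by. Their 7 measured erythroid markers, HBM included, summed to 28488 and 12037 CPM. The part of haemoglobin RNA in the low sum was not tested. Library B was higher than library A in every class. On the CPM scale without ribosomal protein, mitochondrial and haemoglobin genes, dividing intermediate progenitor-like cells (23907 and 24805) were no longer highest in library B, where the non-dividing ones had 24853 (22517 in library A). Per cell, thinned to 1500 UMIs, the median number of members' UMIs was 26 and 28 in excitatory neuron-like cells, 30 and 31 in non-dividing glia-like cells, 32 and 32 in dividing intermediate progenitor-like cells, and 22 and 23 in endothelial-like cells.

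**Figure D1:**
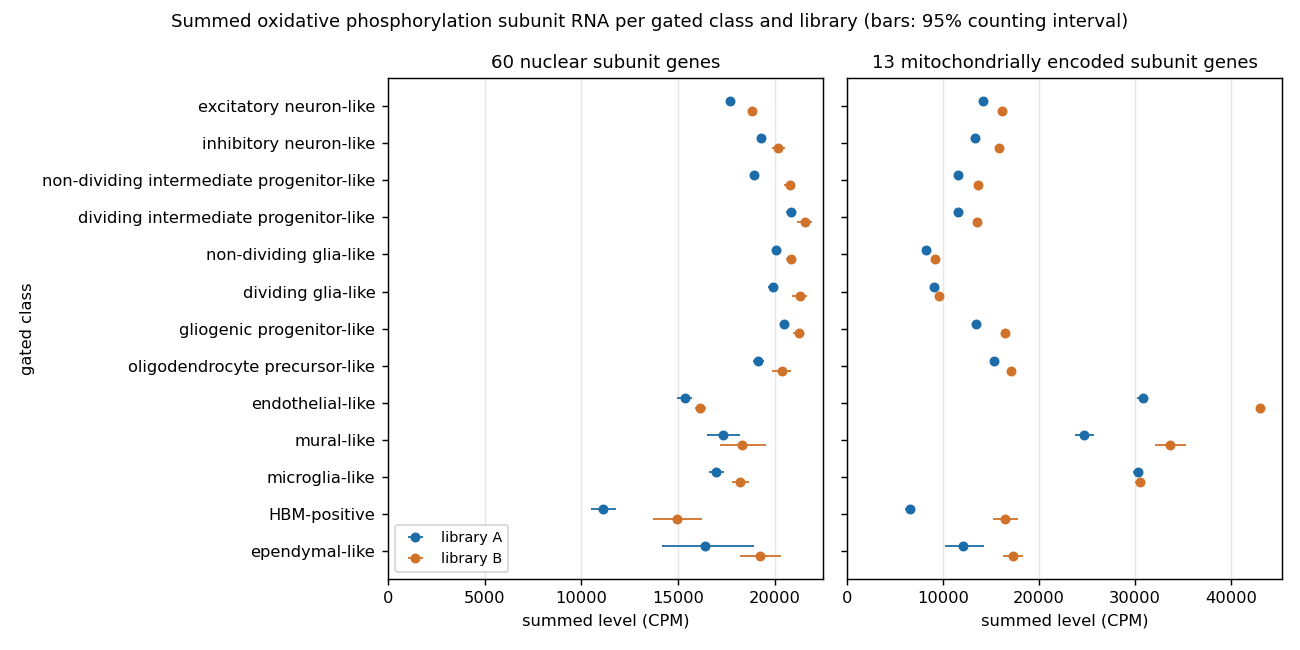
Summed level in CPM (x axis) of the 60 nuclear subunit genes (left) and the 13 mitochondrially encoded subunit genes (right) in each gated class (y axis), with 1 point per library and bars for the 95% Poisson counting interval. Endothelial-like cells have a low nuclear sum (15335 and 16157 CPM) and the highest mitochondrially encoded sum (30795 and 43037 CPM).

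The 13 subunits encoded in mitochondrial DNA did not follow the nuclear sum. Their summed level was 14108 and 16138 CPM in excitatory neuron-like cells, 8237 and 9206 CPM in non-dividing glia-like cells, 30795 and 43037 CPM in endothelial-like cells, and 30255 and 30505 CPM in microglia-like cells. Endothelial-like cells thus had the lowest nuclear and the highest mitochondrially encoded sum of the tested classes in each library, and non-dividing glia-like cells had the lowest mitochondrially encoded sum beside a nuclear sum above that of excitatory neuron-like cells. Tested per gene with edgeR's quasi-likelihood test and Benjamini-Hochberg adjustment over 12285 genes, all 13 were higher in endothelial-like than in excitatory neuron-like cells (median log2 fold change 1.33, for example COX1 at 1.62, SE 0.07) and all 13 were higher in microglia-like cells (median 1.11). Of all genes, 28.1% were higher in endothelial-like cells (median 0.00) and 24.8% in microglia-like cells (median -0.02). Among cells chosen to have at most 3% mitochondrial UMIs, which limits this same measure, 10 of 13 were higher in endothelial-like cells (median 0.39) and 9 of 13 in microglia-like cells (median 0.45). The medians of all genes in that fit were -0.07 and -0.12. In non-dividing glia-like cells 12 of the 13 were lower (median -0.83, ND1 at -1.05, SE 0.06), and in non-dividing intermediate progenitor-like cells 10 were lower (median -0.36), against 5 by DESeq2's Wald test and 7 without the library block. Of all genes, 32.5% were lower in non-dividing glia-like cells (median -0.01) and 15.4% in non-dividing intermediate progenitor-like cells (median -0.05). The mitochondrial share of a cell is also used as a sign of RNA quality, and its median was 2.89% and 4.13% in endothelial-like cells, 2.83% and 2.88% in microglia-like cells and 1.28% and 1.48% in excitatory neuron-like cells. Fewer mitochondria and less RNA per mitochondrion cannot be told apart in these counts.

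Of the 60 members, 59 passed the filter on low counts and were tested, and NDUFA4L2 did not. All 5 comparisons that follow first use the same sums of excitatory neuron-like cells, so their results are not independent of each other. In endothelial-like cells 30 of the 59 members were lower and 6 higher, where 24.2% of all genes tested were lower and 28.1% higher (52.3% in either direction); the median log2 fold change was -0.28 for members and 0.00 for all genes. In non-dividing glia-like cells 24 members were higher and 10 lower, where 32.3% of all genes were higher and 32.5% lower. The median there was 0.06 for members and -0.01 for all genes. Without the filter on low counts these were -0.04 and -0.09. In microglia-like cells 14 were higher and 10 lower (24.8% and 19.7% of all genes, 44.5% in either direction), in non-dividing intermediate progenitor-like cells 10 and 5 (12% and 15.4%, 27.4% in either direction), and in inhibitory neuron-like cells 7 and 8 (14.0% and 15.9%, 29.9% in either direction). Per member, then, the share called lower in endothelial-like cells was above that of all genes, the share called in glia-like cells in either direction (34 of 59) was below the 64.8% of all genes, and the shares in intermediate progenitor-like and inhibitory neuron-like cells were near those of all genes.

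Changes of single members were small. Past adjusted p = 0.05, a change above 2-fold was seen for 1 member in glia-like, 1 in endothelial-like and 1 in microglia-like cells, SDHD each time. Of the 59 members, 54 were called in at least 1 of 7 comparisons and 5 in none: NDUFA8 and NDUFA10, both accessory subunits, and the core subunits NDUFS1, NDUFS3 and NDUFV1. These 5 were named after their values were seen. SDHD and ATP5F1D were called in 6 comparisons, more than any other member. Of the called members chosen to be named, 19 of 26 kept their call in all 9 alternative fits in glia-like cells, 16 of 22 in endothelial-like, 9 of 23 in microglia-like, 4 of 15 in inhibitory neuron-like, 3 of 15 in intermediate progenitor-like, 2 of 15 in dividing intermediate progenitor-like and 1 of 11 in dividing glia-like cells.

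**Figure D2:**
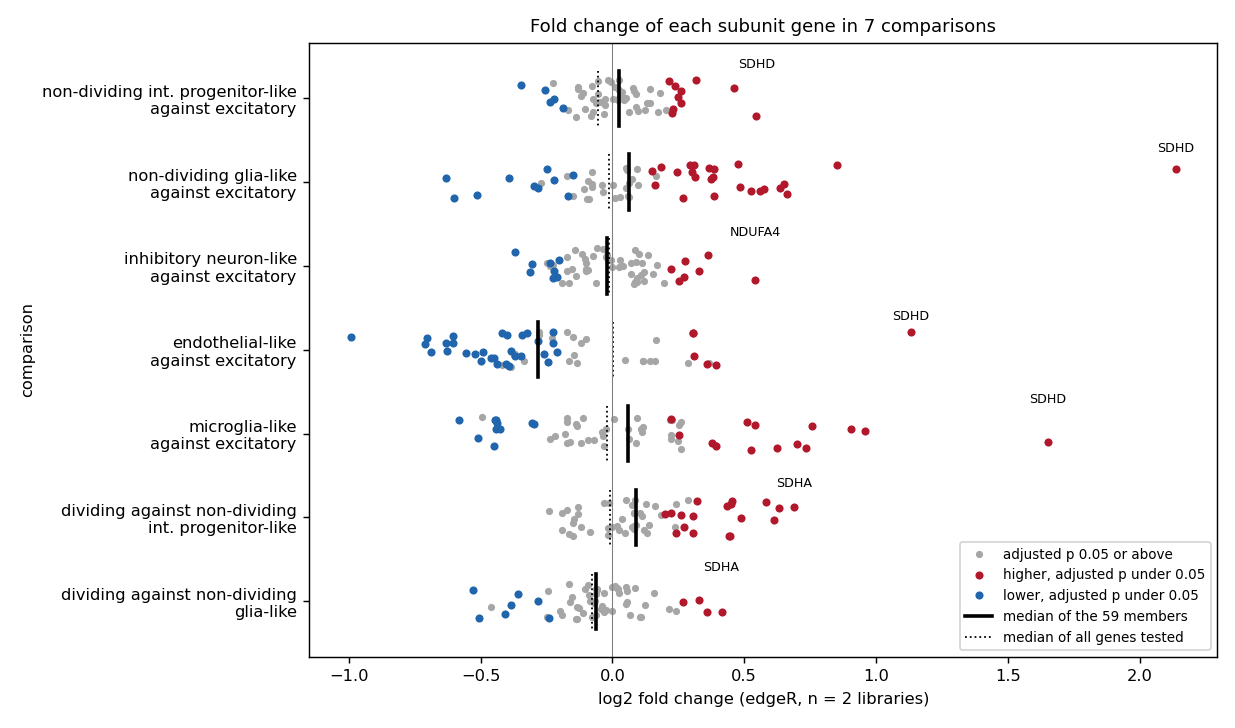
Log2 fold change (x axis, edgeR, n = 2 libraries) of each of the 59 tested members in 7 comparisons (y axis), with red and blue points for members higher and lower at adjusted p under 0.05, a solid bar for the median of members and a dotted bar for the median of all genes tested; the gene with the highest value is named. The members' median lies away from that of all genes in endothelial-like cells (-0.28 against 0.00).

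Complex II had the clearest differences between classes. It holds 4 members: SDHA, the flavoprotein that oxidises succinate, SDHB, the iron-sulphur subunit, and SDHC and SDHD, the membrane anchors. Summed, they reached 219 and 227 CPM in excitatory neuron-like cells, 206 and 224 in inhibitory neuron-like cells, 244 and 278 in non-dividing and 334 and 379 in dividing intermediate progenitor-like cells, and 485 and 542 CPM in non-dividing glia-like cells. Gliogenic progenitor-like cells (395 and 398 CPM) and oligodendrocyte precursor-like cells (351 and 367 CPM) lay between neurons and non-dividing glia-like cells, and of the tested classes the inhibitory neuron-like cells alone overlapped excitatory neuron-like cells. The gliogenic progenitor-like and oligodendrocyte precursor-like classes include dividing cells. Dividing markers summed to 3141 and 3290 CPM in the former, 1586 and 1483 CPM in the latter and 72.6 and 72.8 CPM in non-dividing glia-like cells.

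SDHD stood at 50.5 CPM in library A and 51.5 CPM in library B of excitatory neuron-like cells and at 226 and 265 CPM in non-dividing glia-like cells. The glia-like values lay far above the neuronal ones in both libraries. The log2 fold change was 2.14 (SE 0.09, edgeR adjusted p = 5.39e-38), a 4.40-fold difference. Microglia-like cells had 177 and 111 CPM (log2 fold change 1.65, SE 0.18, edgeR adjusted p = 6.14e-13), and endothelial-like cells had 106 and 126 CPM (1.13, SE 0.16, edgeR adjusted p = 3.59e-09). In non-dividing intermediate progenitor-like cells it was 74.6 and 88.1 CPM (0.55, SE 0.12, edgeR adjusted p = 2.82e-04). Inhibitory neuron-like cells, at 48.4 and 47.9 CPM, lay just below excitatory neuron-like cells and the difference did not pass the test (edgeR adjusted p = 0.52). These 4 calls held in every one of 9 alternative fits.

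The other 3 complex II genes were also higher in glia-like cells, by less. SDHC had 32.0 and 31.2 CPM in excitatory neuron-like and 53.7 and 54.0 CPM in non-dividing glia-like cells (log2 fold change 0.66, SE 0.12), SDHB 72.7 and 78.1 against 107 and 129 CPM (0.52, SE 0.09), and SDHA 64.1 and 65.7 against 97.6 and 93.6 CPM (0.47, SE 0.10). The libraries of both classes do not overlap for any of the 3. Elsewhere the 4 genes did not move as a unit. In non-dividing intermediate progenitor-like cells SDHA was lower (-0.35, SE 0.13, edgeR adjusted p = 0.0304) while SDHD was higher, and the SDHA call was lost in 6 of the 9 alternative fits. In endothelial-like cells SDHB was higher (0.36, SE 0.15, edgeR adjusted p = 0.0371, a call lost in 5 fits), and SDHC gave -0.15 (SE 0.25) and did not pass.

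Neighbouring genes were checked because SDHD changed far more than its partners. TIMM8B, which lies beside SDHD in the RefSeq annotation and encodes a small chaperone of the intermembrane space, had 159 and 173 CPM in excitatory neuron-like and 169 and 176 CPM in non-dividing glia-like cells (log2 fold change -0.04, SE 0.08). BCO2, a carotenoid-cleaving enzyme, had 3.5 and 4.8 CPM against 14.6 and 6.5 CPM, far fewer UMIs than SDHD gained. Whether reads of another transcript add to the SDHD count was not tested.

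**Figure D3:**
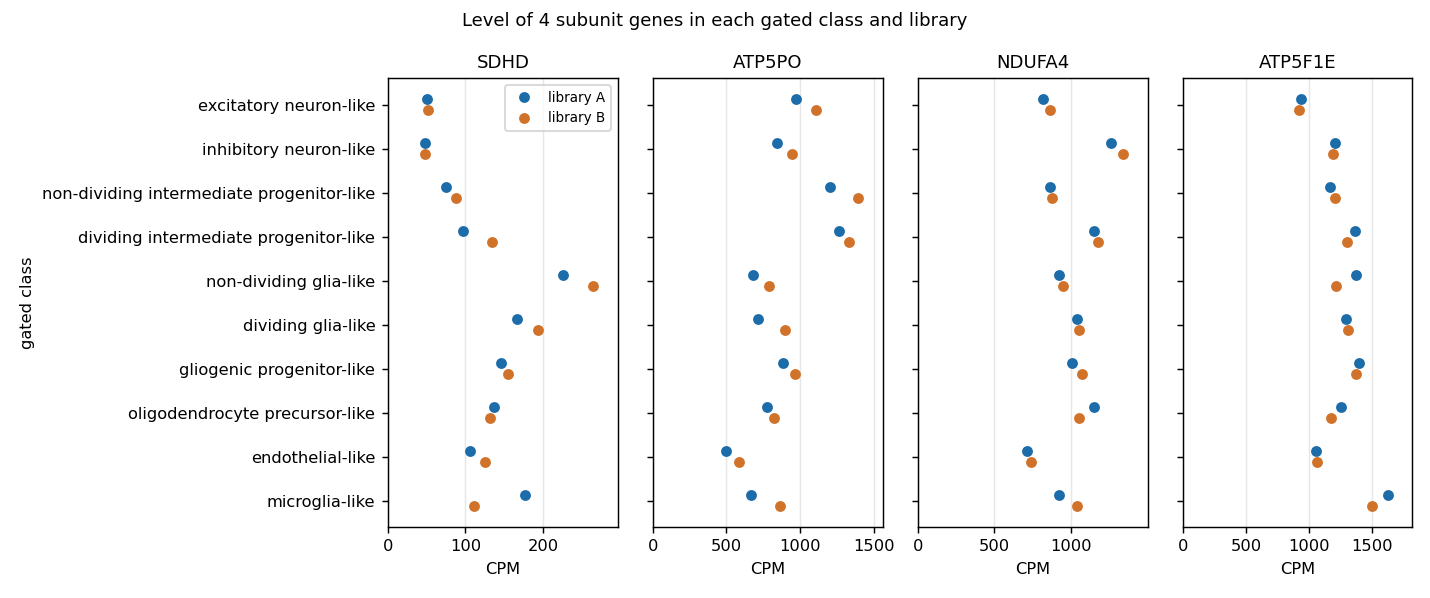
Level in CPM (x axis) of SDHD, ATP5PO, NDUFA4 and ATP5F1E in the 10 tested classes (y axis), 1 point per library. SDHD is highest in non-dividing glia-like cells (226 and 265 CPM), ATP5PO lowest in endothelial-like cells (496 and 587 CPM), NDUFA4 highest in inhibitory neuron-like cells (1262 and 1339 CPM) and ATP5F1E highest in microglia-like cells (1625 and 1500 CPM).

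Complex I was split between its 7 core subunits, which carry the flavin, the iron-sulphur clusters and the quinone site, and its 29 accessory subunits, which surround and stabilise the core. The core sum was 1130 and 1245 CPM in excitatory neuron-like, 1157 and 1270 in non-dividing glia-like, 1268 and 1483 in dividing intermediate progenitor-like and 954 and 1070 CPM in endothelial-like cells. Accessory subunits summed to 6910 and 7374 CPM in excitatory neuron-like, 8546 and 8868 in non-dividing glia-like and 5988 and 6200 CPM in endothelial-like cells. The accessory sum of glia-like cells lay above that of excitatory neuron-like cells in both libraries, while their core sums overlapped; sums were not tested.

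By gene, 16 of 29 accessory subunits were higher and 1 lower in non-dividing glia-like cells, where 32.3% of all genes were higher and 32.5% lower. NDUFB5, a membrane-arm subunit, was at 86.4 and 92.6 CPM in excitatory neuron-like and at 166 and 181 CPM in glia-like cells (log2 fold change 0.85, SE 0.08, edgeR adjusted p = 9.56e-16). NDUFA2 was at 235 and 253 against 398 and 422 CPM (0.65, SE 0.07), NDUFC1 at 143 and 146 against 236 and 248 CPM (0.63, SE 0.07), and NDUFB4 at 72.1 and 81.8 against 118 and 122 CPM (0.56, SE 0.09). For all 4 the libraries of the 2 classes do not overlap. NDUFA5 (0.48, SE 0.08), NDUFB10 (0.39, SE 0.07), NDUFC2 (0.37, SE 0.06), NDUFB8 (0.36, SE 0.06) and NDUFA13 (0.27, SE 0.06) were higher by smaller amounts. NDUFA7, a subunit of the peripheral arm, went the other way, with 194 and 209 CPM in excitatory neuron-like and 132 and 150 CPM in glia-like cells (-0.63, SE 0.08, edgeR adjusted p = 4.03e-11). The 1 core subunit called was NDUFV2, which was lower (-0.25, SE 0.08, edgeR adjusted p = 0.00431, lost in 3 of 9 fits).

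In endothelial-like cells 16 of 29 accessory and 2 of 7 core subunits were lower, where 24.2% of all genes were lower. NDUFB11, part of the membrane arm, had 428 and 462 CPM in excitatory neuron-like and 269 and 296 CPM in endothelial-like cells (log2 fold change -0.71, SE 0.09, edgeR adjusted p = 2.04e-10). NDUFB2 had 316.5 and 315 against 247 and 191.5 CPM (-0.63, SE 0.11), and NDUFA13, also known as GRIM-19, 436 and 441 against 269 and 312.5 CPM (-0.63, SE 0.09). Every endothelial-like value of these 3 genes lay below every excitatory neuron-like value. Smaller falls were found for NDUFB9 (-0.61, SE 0.12), NDUFB6 (-0.61, SE 0.21, kept in 6 of 9 fits), NDUFS4 (-0.52, SE 0.10), NDUFB8 (-0.50, SE 0.09), NDUFA6 (-0.49, SE 0.13) and NDUFC2 (-0.41, SE 0.09). The 2 accessory subunits called higher were NDUFS6 (0.31, SE 0.10), lost in 4 of 9 fits, and NDUFB10 (0.31, SE 0.09), lost in 3, and NDUFS6 changed sign, to -0.02, when cells were thinned to 1500 UMIs.

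The endothelial-like result was checked against the measures that moved with it. With cells of at most 3% mitochondrial UMIs (63 and 94 endothelial-like cells) 36 members were lower and 1 higher. The median was -0.51 for members and -0.07 for all genes. With cells thinned to 1500 UMIs it was -0.38 for members and -0.04 for all genes. The median depth before thinning was 2375 and 2093.5 UMIs in endothelial-like and 3336.5 and 2921.5 in excitatory neuron-like cells. With DESeq2's size factors in place of TMM 24 members were lower and 10 higher, and the median was -0.19 for members and 0.09 for all genes. Each library alone gave -0.31 and -0.26 for members and -0.03 and 0.00 for all genes. The shares of all genes called in the alternative fits are not given. Mural markers (8 of 8 with a UMI) summed to 624 and 722 CPM in endothelial-like cells and 9.44 and 10.5 CPM in excitatory neuron-like cells, where KCNJ8 was at 0. The 11 dividing markers summed to 571 and 769 CPM in endothelial-like against 48.7 and 52.5 CPM in excitatory neuron-like cells, and the 4 fibroblast markers to 116 and 199 against 0.52 and 1.65 CPM. The part of these in the result was not tested.

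In inhibitory neuron-like cells complex I moved both ways. NDUFC1 (log2 fold change 0.36, SE 0.08), NDUFB4 (0.33, SE 0.11) and NDUFA12 (0.25, SE 0.07) were higher, and NDUFB2 (-0.31, SE 0.07) and NDUFB11 (-0.21, SE 0.07) were lower. When ribosomal protein, mitochondrial and haemoglobin genes were left out before scaling, 6 members were higher and 12 lower in this comparison. In non-dividing intermediate progenitor-like cells NDUFB5 (0.32, SE 0.10), NDUFA5 (0.25, SE 0.09), NDUFB7 (0.24, SE 0.07) and NDUFA2 (0.22, SE 0.08) were higher and NDUFA13 (-0.24, SE 0.07) and NDUFS5 (-0.22, SE 0.07) lower. With DESeq2's size factors 11 members were higher and 2 lower there, and with the 3 gene groups left out 10 and 2, so the lower calls depend on the scaling.

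Microglia-like cells, the immune cells of the brain, had large differences on both sides in complex I. NDUFB4 was at 154 and 113 CPM against 72.1 and 81.8 CPM in excitatory neuron-like cells (log2 fold change 0.96, SE 0.17), NDUFA2 at 390 and 347 CPM (0.76, SE 0.11), NDUFB5 at 149 and 116 CPM (0.73, SE 0.17), NDUFC1 at 229 and 193 CPM (0.70, SE 0.13) and NDUFV2 at 273 and 219 CPM (0.62, SE 0.13). These 5 genes were higher than in excitatory neuron-like cells in each library, and more so in library A. NDUFV3 was lower, at 128 and 123.5 against 201 and 219 CPM (-0.58, SE 0.15), as were NDUFB2 (-0.51, SE 0.13), NDUFB11 (-0.45, SE 0.11), NDUFA6 (-0.45, SE 0.16) and NDUFA7 (-0.44, SE 0.15). The balance of calls turned with the processing: 20 higher and 7 lower with DESeq2's size factors, 11 and 12 with the 3 gene groups left out, 5 and 12 with thinned cells, and 6 and 15 with at most 3% mitochondrial UMIs. Library A alone gave a member median of -0.02 and library B 0.05, so no direction of the whole set is given for these cells.

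**Figure D4:**
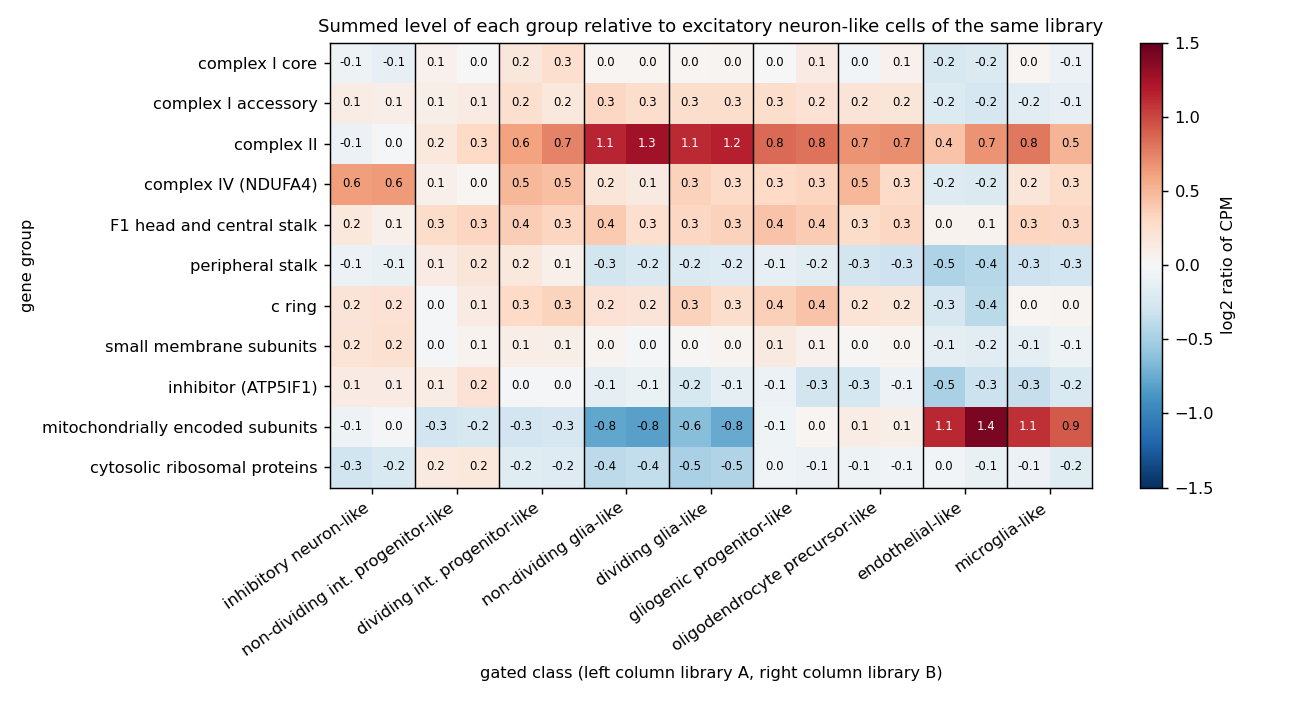
Log2 ratio of the summed CPM of each gene group (rows) to that of excitatory neuron-like cells of the same library, for 9 classes (columns, library A left and library B right). Complex II is above excitatory neuron-like cells in glia-like cells of both libraries. The peripheral stalk is below in every class shown except the intermediate progenitor-like ones. The mitochondrially encoded group is above in endothelial-like and microglia-like cells.

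NDUFA4, first named as a complex I subunit and now placed in complex IV, was highest in inhibitory neuron-like cells. It had 815 and 860 CPM in excitatory neuron-like cells, 1262 and 1339 CPM in inhibitory neuron-like cells, 862 and 878 in non-dividing and 1154 and 1175 CPM in dividing intermediate progenitor-like cells, 923 and 945 in non-dividing glia-like cells, 922 and 1042 in microglia-like and 715 and 739 CPM in endothelial-like cells. The inhibitory values lay above those of every other tested class in both libraries. The difference from excitatory neuron-like cells was 0.54 on the log2 scale (SE 0.06, edgeR adjusted p = 1.8e-13) and held in all 9 alternative fits. It was higher in microglia-like cells (0.38, SE 0.08) and lower in endothelial-like cells (-0.26, SE 0.07), and the glia-like difference of 0.06 (SE 0.06) did not pass.

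NDUFA4L2, the paralogue that hypoxia is known to induce, had 74 UMIs in all cells, and 57 of them lay in gated cells. Mural-like cells held 15 UMIs in library A and 7 in library B, which is 164 CPM (95% Poisson interval 91.8 to 271) and 142 CPM (57.0 to 292). Endothelial-like cells held 3 and 13 UMIs (7.55 CPM, 1.56 to 22.1, and 15.6 CPM, 8.29 to 26.6). Mural markers summed to 624 and 722 CPM in endothelial-like and to 5719 and 5572 CPM in mural-like cells. Whether mural RNA adds to the endothelial-like NDUFA4L2 count was not tested. In excitatory neuron-like cells 6 and 3 UMIs gave 0.44 CPM (0.16 to 0.96) and 0.55 CPM (0.11 to 1.61). The intervals of mural-like cells do not overlap those of endothelial-like or excitatory neuron-like cells in either library. The 38 mural-like cells were too few for a test, and the intervals cover counting error only. In the same mural-like cells NDUFA4 was at 405 and 527 CPM, below every tested class.

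ATP synthase was described by its parts. In the F1 head and central stalk, ATP5F1A and ATP5F1B form the catalytic ring, ATP5F1C the rotating shaft, and ATP5F1D and ATP5F1E its foot. ATP5F1D had 275 and 323 CPM in excitatory neuron-like, 396 and 485 in non-dividing intermediate progenitor-like and 451 and 500 CPM in non-dividing glia-like cells. Both classes lay above excitatory neuron-like cells in each library (log2 fold change 0.46, SE 0.07, edgeR adjusted p = 5.66e-08, and 0.58, SE 0.06, edgeR adjusted p = 3e-13). It was also higher in microglia-like (0.53, SE 0.11) and endothelial-like cells (0.39, SE 0.09) and lower in inhibitory neuron-like cells (-0.22, SE 0.08).

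ATP5F1E had 933 and 923 CPM in excitatory neuron-like cells and 1625 and 1500 CPM in microglia-like cells, with no overlap (log2 fold change 0.90, SE 0.07, edgeR adjusted p = 4.46e-20). It was higher in glia-like (0.38, SE 0.06), inhibitory neuron-like (0.27, SE 0.06) and intermediate progenitor-like cells (0.26, SE 0.06) as well. The catalytic subunit ATP5F1B went the other way in glia-like, microglia-like and inhibitory neuron-like cells. It was at 266 and 276 CPM in excitatory neuron-like, 236 and 233.5 in glia-like (-0.30, SE 0.07), 194 and 214 in endothelial-like (-0.45, SE 0.10) and 189 and 170 CPM in microglia-like cells (-0.44, SE 0.13). In inhibitory neuron-like cells both ATP5F1B (-0.22, kept in 7 of 9 fits) and ATP5F1A (-0.24, kept in 6) were lower. In intermediate progenitor-like cells ATP5F1B was higher, at 327 and 351 CPM (0.23, SE 0.07), together with ATP5F1A (0.26, SE 0.08), both lost in 4 of 9 fits.

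The peripheral stalk holds ATP5PO (the OSCP subunit that joins stalk and head), ATP5PF, ATP5PB and ATP5PD. ATP5PO had 971 and 1112 CPM in excitatory neuron-like, 1203 and 1394 in intermediate progenitor-like, 681 and 791 in non-dividing glia-like and 496 and 587 CPM in endothelial-like cells. The glia-like and endothelial-like values lay below, and the intermediate progenitor-like values above, excitatory neuron-like cells in both libraries. The log2 fold change was -0.99 (SE 0.08, edgeR adjusted p = 3.84e-20) in endothelial-like, -0.60 (SE 0.06, edgeR adjusted p = 7.52e-16) in glia-like, -0.30 (SE 0.06) in inhibitory neuron-like, -0.30 (SE 0.08) in microglia-like and 0.23 (SE 0.06) in intermediate progenitor-like cells. ATP5PF, coupling factor 6, fell from 913 and 973 CPM to 670 and 752 CPM in glia-like cells (-0.51, SE 0.06) and to 642 and 690 CPM in endothelial-like cells (-0.56, SE 0.07). Its stalk partner ATP5PD did the reverse in endothelial-like cells, with 323 and 341 against 393 and 451 CPM (0.30, SE 0.09, lost in 3 of 9 fits), and ATP5PB was lower there (-0.21, SE 0.08). The 4 genes of this stalk thus did not change together.

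The c ring is built from copies of 1 mature protein that is encoded by ATP5MC1, ATP5MC2 and ATP5MC3, so the share of each gene shows which of them supplies the RNA. UMIs were not divided by transcript length, so the shares compare cell classes, not genes. ATP5MC3 made up 71.3% and 71.3% of c ring UMIs in excitatory neuron-like cells, 75.3% and 75.3% in non-dividing glia-like cells, 67.9% and 67.0% in dividing intermediate progenitor-like cells, and 66.6% and 63.5% in oligodendrocyte precursor-like cells, where ATP5MC1 made up 30.7% and 32.4%. By gene, glia-like cells had more ATP5MC3 (log2 fold change 0.18, SE 0.06, edgeR adjusted p = 0.00314) and less ATP5MC2 (-0.39, SE 0.13, edgeR adjusted p = 0.00743) than excitatory neuron-like cells, both lost in 3 of 9 fits, and ATP5MC1 gave -0.08 (SE 0.07). Endothelial-like cells had less ATP5MC1 (-0.38, SE 0.10) and ATP5MC3 (-0.42, SE 0.07). In microglia-like cells the ATP5MC3 value of 0.22 (SE 0.08, edgeR adjusted p = 0.0144) changed sign with thinned cells (-0.06) and with at most 3% mitochondrial UMIs (-0.04).

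Among the small membrane subunits, ATP5MK (DAPIT, which helps link synthase dimers) had 382.5 and 366 CPM in excitatory neuron-like and 204 and 255 CPM in endothelial-like cells (log2 fold change -0.70, SE 0.11), and was higher in inhibitory neuron-like cells at 473 and 448 CPM (0.22, SE 0.07). ATP5ME was higher in inhibitory neuron-like cells too (0.28, SE 0.07). ATP5MG was lower in glia-like (-0.28, SE 0.06) and intermediate progenitor-like cells (-0.26, SE 0.07). ATP5IF1, the inhibitor that stops the enzyme from running backwards, had 784 and 792 CPM in excitatory neuron-like, 711 and 740 in glia-like and 561 and 634.5 CPM in endothelial-like cells, and both decreases passed (-0.22, SE 0.06, and -0.44, SE 0.08).

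Dividing cells were compared with non-dividing cells of the same lineage, which uses no excitatory neuron-like sums. In dividing intermediate progenitor-like cells 18 of 59 members were higher (14.6% of all genes were higher) and 0 were lower (12.7% of all genes, 27.3% in either direction), by edgeR; at an unadjusted p under 0.05 these were 20 and 4, and DESeq2 called 15 and 0. SDHA had 49.9 and 64.1 CPM in non-dividing and 77.4 and 104 CPM in dividing cells (log2 fold change 0.69, SE 0.17). NDUFV2 had 171 and 197 against 251.5 and 319 CPM (0.63, SE 0.11, edgeR adjusted p = 1.42e-06), NDUFB3 120 and 124 against 181 and 186 CPM (0.61, SE 0.12) and NDUFB1 143.5 and 128 against 217 and 180 CPM (0.58, SE 0.12). Each dividing value lay above both non-dividing values of its gene. NDUFS6 (0.45, SE 0.09), NDUFS7 (0.45, SE 0.09), NDUFA4 (0.44, SE 0.07), ATP5MC1 (0.44, SE 0.09), SDHD (0.49, SE 0.16) and SDHB (0.45, SE 0.14) were higher too. NDUFV2 and NDUFA4 kept their call in all 9 alternative fits, while SDHA kept it in 7, SDHB in 6 and SDHD in 5. Of the 4 complex II genes 0 were called with thinned cells and 0 with 1 more marker in each gate (median log2 fold changes 0.32 and 0.12, against 0.47). Dividing cells were deeper, with medians of 5779 and 5413 UMIs against 4101 and 3601, and with all cells thinned to 1500 UMIs 4 members were higher. With at most 3% mitochondrial UMIs 12 were higher and 8 lower, so the one-sided count does not hold under that choice of cells.

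In dividing glia-like cells 4 members were higher and 7 lower than in non-dividing glia-like cells, where 11.2% of all genes were higher and 12.9% lower (24.1% in either direction). NDUFA13 had 550 and 585 CPM in non-dividing and 392 and 430 CPM in dividing cells (log2 fold change -0.53, SE 0.08, edgeR adjusted p = 7.77e-08) and was the 1 call that held in all 9 fits. SDHD had 226 and 265 against 167 and 194 CPM (-0.51, SE 0.11), and NDUFB5 (-0.41, SE 0.12), NDUFB8 (-0.36, SE 0.08) and ATP5F1D (-0.28, SE 0.08) were lower as well. SDHA (0.41, SE 0.13), NDUFV2 (0.36, SE 0.11), NDUFB1 (0.33, SE 0.11) and NDUFS6 (0.27, SE 0.08) were higher, as they were in dividing intermediate progenitor-like cells. With ribosomal protein, mitochondrial and haemoglobin genes left out the count was 5 and 5. The difference of the dividing effect between the 2 lineages was tested with an interaction term, which called 7.68% of all genes and 4 of 59 members: SDHD, NDUFA4, NDUFS7 and NDUFA12.

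**Figure D5:**
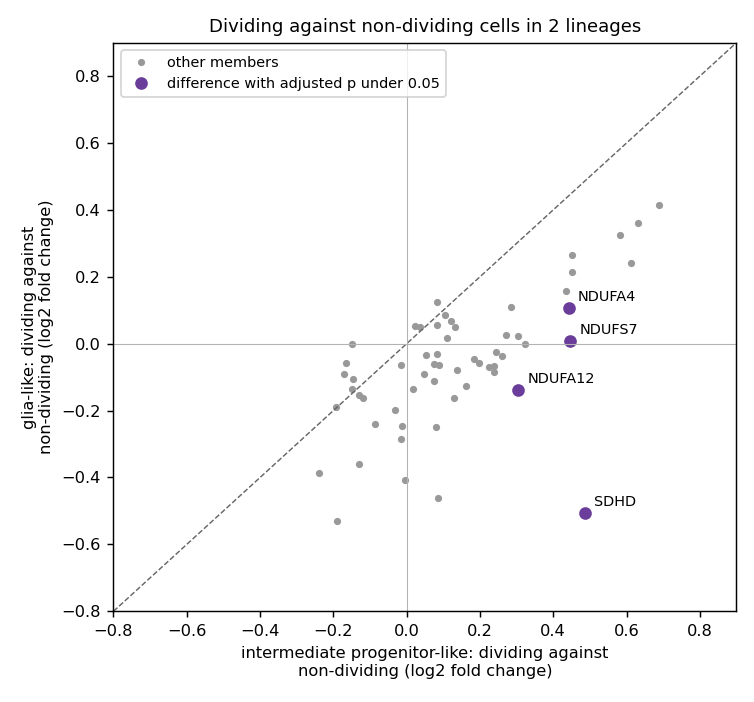
Log2 fold change of dividing against non-dividing cells in intermediate progenitor-like cells (x axis) and in glia-like cells (y axis), 1 point per member, with the 4 members whose difference passed the interaction test named and in purple. SDHD has 0.49 on the x axis and -0.51 on the y axis.

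Genes of the same pathway that are not subunits were counted beside the members. Of 26 assembly factors tested, 7 were higher and 2 lower in non-dividing glia-like cells than in excitatory neuron-like cells, and 4 were higher and 8 lower in endothelial-like cells. In glia-like cells these are 26.9% and 7.69% of the list, below the 32.3% and 32.5% of all genes. In endothelial-like cells 28.1% of all genes were higher and 24.2% lower. SDHAF4, an assembly factor of complex II, was higher in glia-like (log2 fold change 1.52, SE 0.20), endothelial-like (2.34, SE 0.27) and microglia-like cells (3.13, SE 0.28), and NDUFAF2, of complex I, was lower in glia-like cells (-1.96, SE 0.20). Of 15 citric acid cycle genes, 9 were higher and 3 lower in glia-like cells (60% and 20% of the list), led by SUCLG2, a succinyl-CoA ligase subunit, at 33.7 and 32.6 against 174 and 131 CPM (2.15, SE 0.10); in inhibitory neuron-like cells it was lower, at 6.2 and 7.0 CPM (-2.48, SE 0.25). Of 12 regulators of mitochondrial biogenesis, 2 were higher and 2 lower in glia-like cells (16.7% of the list each way). PPARGC1A, the coactivator PGC-1 alpha, rose from 6.1 and 5.7 CPM to 70.8 and 49.4 CPM there (3.28, SE 0.19, edgeR adjusted p = 2.7e-28), while TFAM, which packages mitochondrial DNA, was lower (-0.36, SE 0.13, edgeR adjusted p = 0.0101). Of 10 genes for electron carriers, transport and uncoupling, 3 were higher and 5 lower in glia-like cells. The ADP/ATP exchanger SLC25A6 was lower there, at 1466 and 1514 against 1311 and 1329 CPM (-0.27, SE 0.06). The related exchanger SLC25A5 was higher in glia-like (1.45, SE 0.09) and intermediate progenitor-like cells (1.09, SE 0.10), the heart and muscle form SLC25A4 was lower in dividing than in non-dividing cells of both lineages (-0.98, SE 0.14, in glia-like and -0.95, SE 0.14, in intermediate progenitor-like cells), and UCP2, an uncoupling protein relative, was higher in microglia-like cells (3.92, SE 0.21).

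Cytosolic ribosomal protein genes moved with several of these comparisons. Of 76 tested, 65 were lower and 4 higher in glia-like cells (median log2 fold change -0.52), 64 were lower in inhibitory neuron-like cells (-0.37) and 61 were lower in dividing intermediate progenitor-like cells (-0.35), and their sum was 132547 and 135104 CPM in excitatory neuron-like and 100560 and 104202 CPM in non-dividing glia-like cells. Of all genes, 32.5%, 15.9% and 12.7% were lower in the glia-like, inhibitory neuron-like and dividing intermediate progenitor-like comparisons. The part of the ribosomal protein genes in the results was not tested. On the CPM scale without ribosomal protein, mitochondrial and haemoglobin genes, the members reached 20747 and 22168 in excitatory neuron-like, 22527 and 23493 in non-dividing glia-like, 21916 and 23245 in inhibitory neuron-like and 18245 and 19422 in endothelial-like cells, which left these 4 classes in the same order in each library.

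Some counts are uncertain. In the RefSeq annotation 11 members overlap another gene, among them NDUFB1 (with CPSF2), NDUFB10 (with RPL3L), NDUFB3 (with FAM126B), NDUFV2, NDUFA13, ATP5MK (with TAF5) and ATP5F1B, and whether the counting used strand is not given in the sources used here. How reads shared with processed copies of these genes were counted is also not given.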

How the data were processed

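Single-cell 3′ RNA of 2 libraries of 1 group was used. The authors deposited raw UMI counts per gene and cell in 1 matrix, made with Cell Ranger per the submitters' processing notes. Not given in the sources used here: build, annotation, strand setting and treatment of shared reads. A cell was dropped if it had fewer than 500 genes or over 10% mitochondrial UMIs, which left out 14 of 14787; no deposited cell had under 1501 UMIs. The members and all gene lists were chosen with earlier results of these data known.

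Cells were gated by marker RNA: 2 markers for neuron-like, intermediate progenitor-like, gliogenic progenitor-like and oligodendrocyte precursor-like cells, 3 for the other classes, and at least 3 HBM UMIs. Dividing cells had at least 3 cell cycle markers and non-dividing ones at most 1. These thresholds were set after marker counts were seen. FABP7 was not counted among the glia markers of the gates. Neuron-like and glia-like cells with the markers of another gate were left out. Intermediate progenitor-like cells could hold excitatory neuron markers (647 and 609 CPM in non-dividing ones). Gliogenic progenitor-like and oligodendrocyte precursor-like cells could hold glia markers and dividing markers, and the latter gliogenic progenitor markers. Endothelial-like, mural-like, microglia-like and ependymal-like cells only needed more markers of their own than of any other class. HBM-positive cells had no limit on neuron or glia markers. No doublet caller was run.

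UMIs were summed per class and library, for 10 classes with at least 20 cells in each library, and fitted once with edgeR 4.0.16 in R 4.3.3 (quasi-likelihood test, TMM, library as a block, 20 sums, 9 residual degrees of freedom, 12285 genes after edgeR's filter on low counts, Benjamini-Hochberg adjustment, threshold 0.05). The block is used because the sums of all classes in a library come from the same cells' preparation, as the barcode suffix shows. The fit was tested on simulated data. Fold changes within a single library use a prior count of 2, and those of the edgeR fits use edgeR's default. Intervals of summed levels are exact Poisson intervals for counting error. Planned comparisons of HBM-positive cells with excitatory neuron-like cells and of mural-like with endothelial-like cells had too few cells and were not tested. The comparisons of dividing intermediate progenitor-like cells and of microglia-like cells, and the fit with at most 3% mitochondrial UMIs, were chosen after seeing the data. Other alternatives were DESeq2 1.42.0, its size factors, no filter, only the compared classes, no block, gene groups left out, thinned cells, stricter gates and each library alone.

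Members named in a comparison were those past the threshold with the same direction in both libraries, at most 12 higher and 12 lower by size of change, the NDUFA4 and ATP5MC gene pairs and the 3 most abundant of each complex. Others were named to complete a role, after their values were seen. 1 member that the rule would name is counted but not reported here.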

Additional observations from a re-analysis of the deposited data

Results flagged for a closer look

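For 4 members the effect of dividing differed between glia-like and intermediate progenitor-like cells by the interaction term, given here as the glia-like minus the intermediate progenitor-like log2 fold change with edgeR's quasi-likelihood test. They are 4 of 59 members, where 7.68% of all genes were called, so the share is near that of all genes. SDHD, a membrane anchor of complex II, differed by -0.99 (SE 0.19, edgeR adjusted p = 1.14e-04): it was higher in dividing intermediate progenitor-like cells and lower in dividing glia-like cells, in both libraries. NDUFA4 differed by -0.34 (SE 0.09, edgeR adjusted p = 0.0134), the complex I core subunit NDUFS7 by -0.44 (SE 0.13, edgeR adjusted p = 0.019) and the accessory subunit NDUFA12 by -0.44 (SE 0.14, edgeR adjusted p = 0.0324). These 3 were higher in dividing intermediate progenitor-like cells, and their difference in glia-like cells did not pass. Of 9 alternative fits, the call in dividing intermediate progenitor-like cells was kept in 9 for NDUFA4, 8 for NDUFS7, 5 for SDHD and 4 for NDUFA12. The interaction term was tested in the main fit only, with no alternatives.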

How the results depend on the processing

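Counts are of members called higher or lower, where the reported counts are 10 and 5 in intermediate progenitor-like, 24 and 10 in glia-like, 7 and 8 in inhibitory neuron-like, 6 and 30 in endothelial-like and 14 and 10 in microglia-like cells, 4 and 7 in dividing glia-like and 18 and 0 in dividing intermediate progenitor-like cells; counts not given stayed within 1.5 times. Without the filter on low counts, intermediate progenitor-like cells had 3 higher, glia-like 15, inhibitory neuron-like 1, endothelial-like 2, dividing intermediate progenitor-like 8 and microglia-like 8, with 3 lower in dividing glia-like and 20 lower in microglia-like cells. With only the compared classes (1 residual degree of freedom), intermediate progenitor-like cells had 17 higher and 2 lower and dividing glia-like cells 7 higher. Without the library block, which pairs the classes, intermediate progenitor-like cells had 3 higher and 0 lower, inhibitory neuron-like 3 and 3, dividing glia-like 1 and 4, glia-like 5 lower and dividing intermediate progenitor-like 10 higher. With 1 more marker in each gate, intermediate progenitor-like cells had 5 higher and 2 lower, inhibitory neuron-like 5 lower, endothelial-like 10 higher, dividing glia-like 2 higher, dividing intermediate progenitor-like 4 higher and microglia-like 6 lower. DESeq2's size factors gave 2 lower in intermediate progenitor-like and 10 higher in endothelial-like cells, and its Wald test 1 lower in intermediate progenitor-like, 6 lower in glia-like, 4 lower in inhibitory neuron-like, 10 higher in endothelial-like and 1 higher in dividing glia-like cells; it moved the median of all genes from -0.02 to 0.09 in microglia-like cells. With ribosomal protein, mitochondrial and haemoglobin genes left out, 2 were lower in intermediate progenitor-like and 1 in dividing intermediate progenitor-like cells. With thinned cells, 0 were lower in intermediate progenitor-like cells, 2 higher in endothelial-like, 1 higher and 1 lower in dividing glia-like, 4 higher in dividing intermediate progenitor-like and 5 higher in microglia-like cells. With at most 3% mitochondrial UMIs, 1 was higher in endothelial-like, 11 lower in dividing glia-like, 8 lower in dividing intermediate progenitor-like and 6 higher in microglia-like cells. NDUFS6 reversed in endothelial-like cells when thinned (-0.0205), and ATP5MC3 in microglia-like cells when thinned (-0.0588) and with at most 3% mitochondrial UMIs (-0.0367). Over the 9 fits the median log2 fold change of members ran from -0.02 to 0.09 in intermediate progenitor-like, -0.04 to 0.12 in glia-like, -0.11 to 0.01 in inhibitory neuron-like, -0.51 to -0.19 in endothelial-like, -0.16 to 0.16 in microglia-like, -0.11 to 0.01 in dividing glia-like and 0.01 to 0.09 in dividing intermediate progenitor-like cells, so its sign turned in all but the endothelial-like and dividing intermediate progenitor-like comparisons; without the filter it was -0.46 in endothelial-like cells. The median of all genes tested moved as well. Without the filter it was -0.29 in endothelial-like cells, -0.12 in intermediate progenitor-like cells and -0.09 in glia-like cells. The members' median there was -0.02 in intermediate progenitor-like and -0.04 in glia-like cells. In these 2 comparisons it lay above that of all genes in each of the 9 fits. The cause of these moves was not tested.

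Each library alone gave median log2 fold changes of 0.0216 to 0.042 in intermediate progenitor-like, 0.0384 to 0.0813 in glia-like, -0.0789 to 0.0196 in inhibitory neuron-like, -0.313 to -0.263 in endothelial-like, -0.0188 to 0.0492 in microglia-like, -0.0711 to -0.0181 in dividing glia-like and 0.0875 to 0.127 in dividing intermediate progenitor-like cells, with no test. Of 127 called results named by the rule, 54 kept their call in all 9 fits. Mural-like, ependymal-like and HBM-positive cells had too few cells for any fit, so no alternatives were run for them.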
